A study of Rattus norvegicus with 3 samples.

Results

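The comparison described here sets neonatal rat ventricular cardiomyocytes that received an expression vector for 11β-HSD1 (HSD1) against cells that received the matching empty vector (Control). Another pool received the 11β-HSD1 vector together with the inhibitor BVT.2733 (HSD1 plus BVT), and its levels stand beside those of the compared pools as levels only. All 3 pools were primary cells of the neonatal rat ventricle and all were transfected with a vector. The sources used here do not give strain, vector dose, exposure time, any added steroid or how many cultures went into a pool. RNA of the mixed cells of each group was labelled with Cy3 and read on 1 Agilent array per group. The study asked how 11β-HSD1 acts on cardiomyocyte hypertrophy. The genes compared were those whose probe was well above background on both arrays, 11883 of the 15159 genes that a probe could be matched to. With 1 array on each side there was no replicate, so differences are given as sizes, with no test.

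11β-HSD1 is an enzyme of the endoplasmic reticulum that turns inactive 11-keto steroids (cortisone, and 11-dehydrocorticosterone in the rat) into the active glucocorticoids cortisol and corticosterone, which bind the glucocorticoid receptor inside the cell. The receptor raises transcription of some genes through palindromic DNA elements, and it lowers that of many cytokine genes through NF-kappaB and AP-1. Cardiomyocytes carry the receptor, and cultures of them also hold fibroblasts, endothelial cells and macrophages. Known glucocorticoid receptor targets and interferon response genes were set aside as lists of 40 and 53 genes. The account below is of the genes outside these lists. The lists are not complete, so a gene described below can still be a known glucocorticoid or interferon response gene. Among the function lists below, acute-phase proteins, NF-kappaB genes and prostaglandin genes each share 1 member with those set aside. Their counts include that member.

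Levels are log2 of the processed signal with the array's 75th percentile set to 0, and a gene counted as higher or lower where HSD1 and Control differed 2-fold or more. Of 11883 genes, 161 were higher in HSD1 and 64 were lower, 1.35% and 0.539% of the genes and 1.89% together. Quantile normalization of the same signals gave 118 higher and 92 lower, cyclic loess 114 and 93, and the log2 values the authors deposited 113 and 89, so the excess of higher genes was smaller there. All 64 lower genes stayed 2-fold lower in each of these, and 111 of the higher genes stayed 2-fold higher in quantile normalization, cyclic loess and the deposited table alike. Among the genes named below, Ccl21, Timp4, Sox17, Amigo2, Acss3, Kcnab2, Slc8a2 and Fmo1 were under 2-fold in each of the 3. The median difference over all genes was 0.06, and -0.01 in those alternatives. Such a downward shift by itself keeps lower genes past 2-fold and takes higher genes near the threshold under it. In these levels 60.1% of all genes were above 0, the share to set beside the counts above 0 given for lists below. Without the set-aside lists, 152 of 11804 genes were higher and 49 lower. The differences were mostly small: 68.1% of genes lay within 1.2-fold, 40 were higher and 12 lower by 3-fold or more, and 3 were higher and 0 lower by 8-fold or more.

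The arrays correlated at r = 0.9937 over 22763 probes, and both were read in the same scan, while HSD1 plus BVT was read in another, so that inhibitor and scan cannot be told apart there. Between 82.0% and 82.5% of spots were well above background on the compared arrays. The ratio of single spots of 1 probe had an SD of 0.069 (log2), and of 0.124 in the dimmest quartile of these probes, an error of the array reading that leaves out the spread between cultures. Dim genes stood further from 0 than bright ones: the median difference was 0.19 in the lowest quartile of signal and 0.03 in the highest, and 95 of the 161 higher and 39 of the 64 lower genes lay below the median signal. A different background correction (normexp, with an offset of 50 added to every signal) shrank such dim differences and left 41 higher and 13 lower. The offset by itself makes ratios of dim signals smaller, so the drop cannot tell if those differences came from background. The normexp value is given wherever normexp took a named gene under 2-fold.

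**Figure D1:**
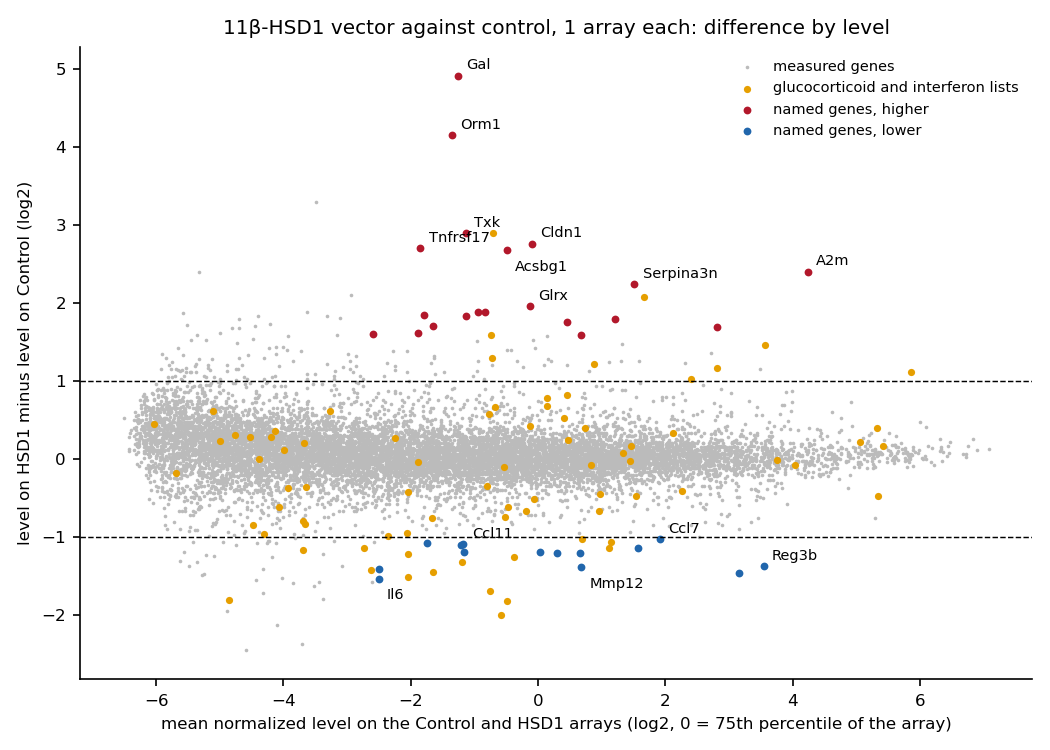
Difference between the HSD1 and Control arrays (log2, vertical axis) against the mean normalized level of both arrays (log2, horizontal axis), 1 point for each of 11883 genes, with dashed lines at 2-fold. Gal and Orm1 stand highest, A2m and Reg3b are the named genes with the highest mean level in each direction, and the orange points are the glucocorticoid and interferon lists that the account sets aside.

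Hsd11b1, the gene the vector carries, had a level of 3.39 in Control, 3.86 in HSD1 and 3.77 with the inhibitor added, 1.39-fold higher in HSD1 than in Control and below the 2-fold threshold. The value rests on 1 probe, and the sources used here do not name the species of the insert, so it is not known if the vector's own transcript is read by it. Cardiomyocyte markers were present as labelled: all 18 with a probe were measured and above the median signal, among them Tnnt2, Actc1 and Ryr2. Their summed signal relative to the 75th percentile was 502 in Control and 555 in HSD1, and their median difference was 0.15. Fibroblast markers summed to 201 and 202, smooth muscle markers to 54.3 and 61.8, macrophage markers to 15.4 and 21.4, and endothelial markers to 5.69 and 8.73, in the same order. Schwann and neuron markers summed to 2.17 and 3.40, epicardial and mesothelial markers to 8.32 and 6.31, erythroid markers to 7.57 and 6.08, and mast cell and neutrophil markers to 2.86 and 2.46. A sum follows its brightest members. Tfrc, the brightest erythroid marker, went from a level of 2.34 in Control to 1.84 in HSD1, while 7 of the 9 erythroid markers were above 0 with a median of 0.09. Kdr likewise made up most of the endothelial sum.

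Promoters are shown for 4 genes, the secreted proteins Gal, Orm1 and Serpina3n, which were higher in HSD1, and Il6, which was lower. Each is shown with a motif that it matches, and the motif is not the same for all. Genes with larger differences than Serpina3n, such as Txk and Cldn1, are not shown, so the 4 do not stand for the changed genes. Each promoter is the run of 250 bases before the gene's RefSeq start in GRCr8, 5′ to 3′ on the gene's strand, with a motif match in capitals. The Orm1 promoter, at chr5:81788259-81788508 on the plus strand, and the Serpina3n promoter, at chr6:129088142-129088391 on the plus strand, hold a match to a relaxed glucocorticoid receptor palindrome, which reads GNACA, any 3 bases, then TGTNC. The Gal promoter, at chr1:210084573-210084822 on the minus strand, holds the receptor's shorter motif AGAACA, and the Il6 promoter, at chr4:5894576-5894825 on the minus strand, holds a match to the NF-kappaB motif, which reads GGG, any 2 bases, then TTTCC.
Orm1: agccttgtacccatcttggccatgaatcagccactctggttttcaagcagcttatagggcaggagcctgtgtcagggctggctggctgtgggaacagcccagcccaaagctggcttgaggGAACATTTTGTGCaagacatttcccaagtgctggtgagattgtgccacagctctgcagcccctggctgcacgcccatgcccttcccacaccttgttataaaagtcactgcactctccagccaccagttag
Serpina3n: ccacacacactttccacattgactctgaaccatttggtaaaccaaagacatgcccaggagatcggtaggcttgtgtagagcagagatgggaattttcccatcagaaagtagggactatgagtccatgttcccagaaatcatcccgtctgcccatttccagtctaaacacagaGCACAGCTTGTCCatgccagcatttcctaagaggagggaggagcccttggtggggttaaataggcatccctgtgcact
Gal: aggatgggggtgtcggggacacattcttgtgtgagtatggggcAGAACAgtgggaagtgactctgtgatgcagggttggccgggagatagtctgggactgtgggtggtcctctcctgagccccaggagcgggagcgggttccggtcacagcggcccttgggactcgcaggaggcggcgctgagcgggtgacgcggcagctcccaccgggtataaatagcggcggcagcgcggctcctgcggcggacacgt
Il6: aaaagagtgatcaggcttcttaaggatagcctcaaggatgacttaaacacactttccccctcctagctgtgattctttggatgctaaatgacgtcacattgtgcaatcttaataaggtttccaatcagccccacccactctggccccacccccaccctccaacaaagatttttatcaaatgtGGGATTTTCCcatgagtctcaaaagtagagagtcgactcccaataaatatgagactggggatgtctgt

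The Orm1 match lies 130 to 118 bases before the start, the Serpina3n match 78 to 66, the Gal match 207 to 202 and the Il6 match 68 to 59. In all, 9 motifs were searched on both strands in the same window of 27457 promoters, and 127 of the higher and 48 of the lower genes had a promoter in the table. The relaxed palindrome was in 0.364% of all promoters, in 25 of 9706 promoters of measured genes (0.258%), in 2 of the 127 higher genes, which are Orm1 and Serpina3n, and in 0 of the 48 lower genes. The fuller palindrome, AGAACA, any 3 bases, then TGTTCT, every match of which is also a match of the relaxed one, was in 1 promoter of all and in 0 of the measured genes. AGAACA, which the fuller palindrome contains, is common: it was in 17.1% of all promoters, 11.6% of measured genes, 19.7% of higher genes and 8.33% of lower genes.

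The NF-kappaB motif was in 1.28% of all promoters, 1.48% of measured genes, in 4 higher genes and in 1 lower gene, Il6. The AP-1 motif TGACTCA was in 3.98% of all promoters, 3.39% of measured genes, 7 higher genes and 5 lower genes. The interferon element, TTTC, any 2 bases, then TTTC, was in 3.29% of all promoters and 2.71% of measured genes. It was in 6 of the 127 higher genes and 8 of the 48 lower genes, and in 0 of the 37 lower genes outside the set-aside lists. The STAT motif TTCCNGGAA, the C/EBP motif TTGCNNCAA and the TATA box TATAAA were in 1.04%, 1.74% and 13.1% of all promoters. Over measured genes the shares were 1.01%, 1.73% and 8.83%. The 3 motifs were in 2, 1 and 22 of the 127 higher genes, and in 2, 0 and 11 of the 48 lower genes. For the TATA box these are 17.3% of higher and 22.9% of lower genes. These matches describe the letters of a short window and not a binding site.

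Secreted peptides gave the highest value of the comparison. Gal, the precursor of the neuropeptide galanin, had a level of -3.71 in Control, 1.20 in HSD1 and -0.48 with the inhibitor added, and was 30.1-fold higher in HSD1 than in Control. Its other probe gave a difference of 4.84 beside 4.91. The level with vector and inhibitor lay between the other levels. Of 40 measured neuropeptide and peptide hormone genes, 2 were higher and 1 lower, with a median difference of 0.18. Trh, the precursor of thyrotropin-releasing hormone, went from -2.76 in Control to -1.36 in HSD1, 2.63-fold higher (0.73 under normexp). Grp, which encodes gastrin-releasing peptide, was the lower gene, at -3.55 and -4.81 (-0.33 under normexp). Outside the list, Prl8a2, a prolactin family hormone known from the decidua, was 3.28-fold higher, and Pth2, which encodes the tuberoinfundibular peptide of the parathyroid hormone family, was 2.11-fold lower, with levels of -1.20 in Control, -2.28 in HSD1 and -0.70 with the inhibitor added (-0.64 under normexp). Of the receptors for such peptides, 0 of 36 were higher and 1 was lower, the somatostatin receptor gene Sstr1, at -1.23 from a dim signal (-0.28 under normexp).

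Acute-phase proteins, plasma proteins that the liver secretes in inflammation, held 4 higher and 0 lower genes among 31 measured. Orm1, which encodes the plasma carrier orosomucoid, had a level of -3.43 in Control, 0.72 in HSD1 and -0.17 with the inhibitor added, 17.7-fold higher in HSD1. A2m, the broad protease inhibitor alpha-2-macroglobulin, had levels of 3.04, 5.44 and 5.15 in the same order, 5.29-fold higher in HSD1, and its other probe gave a difference of 2.80 beside 2.40. Serpina3n, a serine protease inhibitor, had levels of 0.39, 2.63 and 2.25, 4.72-fold higher in HSD1. On the HSD1 plus BVT array all 3 stood closer to HSD1 than to Control. Cp, the copper ferroxidase ceruloplasmin, was 2.24-fold higher (1.16), and its other probe gave 0.79. Over the whole list, with these 4 included, 20 of the 31 were above 0, beside 60.1% of all genes, and the median was 0.16. Without the set-aside member, 19 genes of the list lay above the median signal, Orm1, A2m and Serpina3n among them. Of these 19, 14 were above 0, and their median was 0.42. Ptx3, a pentraxin of local inflammation, stood at -0.84, with the other probe at -0.88, and the iron carrier Tf at 0.91. Complement genes, which share the plasma, gave 0 higher and 0 lower of 23, a median of -0.13, and an extreme of -0.91 for Cfp, the stabiliser properdin. Cfp passed 2-fold under quantile normalization (-1.13), cyclic loess (-1.17) and the deposited table (-1.13), and stood at -0.24 under normexp. Of 25 coagulation genes 1 was higher, the thrombin receptor gene Thbd, which encodes the endothelial surface protein thrombomodulin, at 0.96 in Control and 2.22 in HSD1 (2.39-fold).

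**Figure D2:**
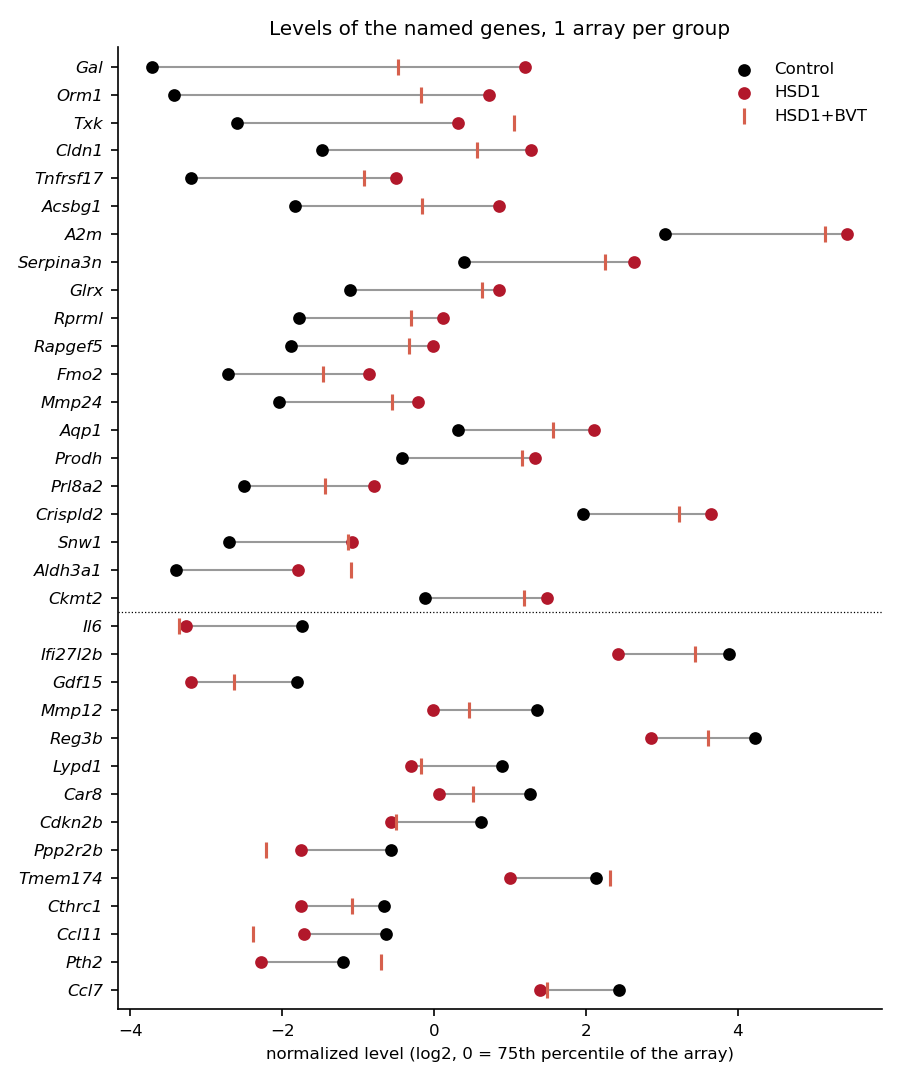
Normalized level (log2, 0 being the 75th percentile of the array) of the named genes with the largest differences on the Control, HSD1 and HSD1 plus BVT arrays, 1 array per group and no error bars. A2m went from 3.04 in Control to 5.44 in HSD1 and Il6 from -1.74 to -3.27.

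Chemokines, the secreted proteins that draw leucocytes along a gradient, were mostly below Control. Of 32 measured chemokines and receptors, 5 were lower and 1 was higher, 10 were above 0, and the median was -0.37, with -0.24 to -0.43 over the alternatives. Ccl7, which attracts monocytes, had levels of 2.43 in Control, 1.40 in HSD1 and 1.49 with the inhibitor added, 2.05-fold lower in HSD1. Ccl11, the eosinophil attractant eotaxin, had levels of -0.63, -1.72 and -2.38, 2.12-fold lower in HSD1 (-0.68 under normexp). Both stayed low on the array with the inhibitor. Ccl2, the neighbour of Ccl7 in function and the main monocyte attractant, stood at 5.68 and 4.92, a difference of -0.76, and Ccl5, an attractant of T cells, at -0.85. The T cell attractant Cxcl9 (-1.55), the monocyte attractant Ccl6 (-1.49) and the B cell attractant Cxcl13 (-1.07) were lower from dim signals, and normexp put them at -0.46, -0.34 and -0.30. The lymph node chemokine Ccl21 was the higher gene, at 1.15 from a dim signal (0.11 under normexp). Over the family of chemokine ligands, 7 of 28 were lower, 1 was higher, 4 were above 0 and the median was -0.54. Unlike the chemokine list, this family also counts Cxcl10 (-1.14), a member of the set-aside interferon list. It also counts Ccl12, a lower gene that the chemokine list lacked and whose size is given further below. Among the receptors, Ccr2 stood at 0.76 and Cxcr4 at 0.64.

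Of 33 interleukins, TNF family members and other cytokines, 0 were higher and 3 were lower. Il6, the cytokine that drives the acute-phase response in liver, had levels of -1.74 in Control, -3.27 in HSD1 and -3.36 with the inhibitor added, 2.88-fold lower in HSD1. Il1b, the product of activated macrophages, had -1.82, -3.40 and -3.29, 2.98-fold lower. Gdf15, a stress-induced member of the TGF-beta family, had -1.80, -3.20 and -2.63, 2.65-fold lower. All 3 went under 2-fold with normexp, at -0.79, -0.78 and -0.72. The others were spread around 0, with Il11 at 0.67, Il18 at 0.63, Tnf at -0.58 and Il1a at -0.88, so the list's median was 0.09, and -0.07 under quantile normalization, cyclic loess and the deposited table. NF-kappaB and Toll-like receptor genes showed 0 higher and 0 lower of 35, with an extreme of -0.95 for Tlr2, the receptor of bacterial lipoproteins. Reg3b, a secreted lectin with antibacterial action, was 2.58-fold lower at high levels, 4.23 in Control, 2.86 in HSD1 and 3.60 with the inhibitor added. Ifi27l2b, whose name marks it as an interferon-induced family member that the set-aside list lacked, was 2.75-fold lower, from 3.88 to 2.42, and its other probe gave -1.69.

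Of 24 measured genes of MHC class I and II antigen presentation, 0 were lower and 1 was higher. The list also holds proteasome genes such as Psme1 and costimulation genes such as Cd86. Of its 10 genes above the median signal none was above 0, and their median was -0.37. The higher gene was RT1-DMa, a peptide loading subunit of class II, at -4.23 in Control and -2.40 in HSD1 (0.68 under normexp). Receptor and kinase genes known from lymphocytes included 2 of the highest values. Txk, a Tec family kinase of T cells, had levels of -2.59 in Control, 0.31 in HSD1 and 1.05 with the inhibitor added, 7.44-fold higher in HSD1. Tnfrsf17, the plasma cell receptor BCMA, had -3.20, -0.50 and -0.92, 6.50-fold higher. Txk was highest with vector and inhibitor, and Tnfrsf17 with the vector alone. In the list of 25 measured lymphoid genes, of which 25 more had a probe but were not measured on both arrays, 1 was lower, the B cell adaptor Blnk at -1.10 (-0.33 under normexp). In the list of 39 cytokine receptors Tnfrsf17 was the higher gene and Il7r, the interleukin 7 receptor, the lower at -1.58 (-0.62 under normexp), although its other probe gave -0.23. Macrophage markers had a median of 0.16 over 15 measured of 18. Mrc1, the mannose receptor, was the higher one at 1.57 (0.40 under normexp), and C1qa, Cd163 and Itgam were not measured on both arrays. The part of macrophages in the cytokine and chemokine values was not tested.

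**Figure D3:**
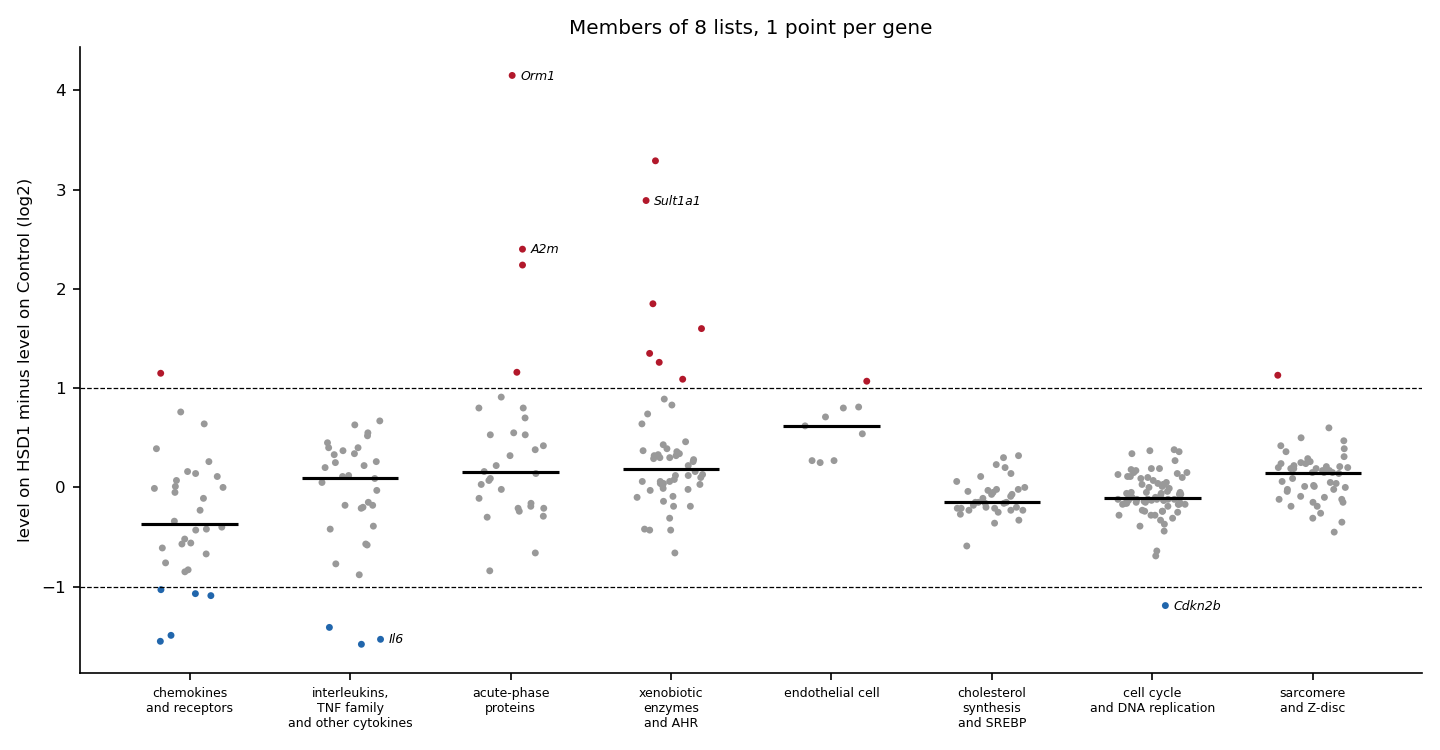
Difference between HSD1 and Control (log2, vertical axis) for the measured members of 8 lists, 1 point per gene, with a bar at each list's median and dashed lines at 2-fold. Chemokines lie mostly below 0 with a median of -0.37, the 9 endothelial markers all lie above 0, and cholesterol synthesis genes cluster just below 0 with a median of -0.15.

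Several genes of cell junctions and vessels were higher. Cldn1, a claudin that seals tight junctions, had levels of -1.48 in Control, 1.28 in HSD1 and 0.57 with the inhibitor added, 6.78-fold higher in HSD1. The list of tight junction and epithelial genes held 3 higher and 0 lower of 34 and a median of 0.05, the others being the pore-forming claudin Cldn2 (1.68, and 0.41 under normexp) and the keratin Krt7 (1.06, and 0.50 under normexp). Of 11 measured claudins, a family chosen after the values were seen, 10 were above 0, and Cldn1 was the only claudin above the median signal. Among 44 adhesion molecules 3 were higher, the endothelial Icam2 (1.35), the cadherin Cdh6 (1.23) and Amigo2 (1.07, with its other probe at -0.56), and 1 was lower, Selp, the P-selectin of endothelium and platelets (-1.08). Normexp put these at 0.18, 0.55, 0.14 and -0.33.

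All 9 measured endothelial markers were above 0, with a median of 0.62, or 0.16 under normexp. Kdr, the main VEGF receptor, had levels of 2.27 in Control, 2.89 in HSD1 and 3.19 with the inhibitor added. Pecam1, an adhesion protein of endothelium, stood at 0.81, Tek at 0.80 and the transcription factor Sox17 at 1.07 from a dim signal (0.08 under normexp). Cldn5, Emcn, Nos3 and Tie1 were not measured on both arrays, and 2 of the 9 markers were above the median signal. In a pooled culture, a different number of cells of a type and a different amount of RNA per cell cannot be told apart. The part of endothelial cells in the values of single genes was not tested. In other lists, the Notch receptor gene Notch4 was the higher gene of 26 in the Notch and Hedgehog pathways (1.70, and 0.41 under normexp). Epas1, the hypoxia factor HIF-2 alpha, was 1 of 2 higher of 24 hypoxia genes (1.19, and 0.57), and the fatty acid binding protein gene Fabp4 was the higher gene of 53 in lipid uptake and storage (1.38, and 0.72). Aqp1, the water channel of capillaries and red cells, was brighter, with levels of 0.32 in Control, 2.11 in HSD1 and 1.57 with the inhibitor added, 3.46-fold higher in HSD1.

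In the extracellular matrix, of 16 measured collagen chains 0 were higher and 0 lower, and Col1a1 stood at -0.08. Col14a1, a collagen that sits on the surface of fibrils, was the extreme, 1.99-fold lower, with levels of 3.03 in Control, 2.03 in HSD1 and 2.16 with the inhibitor added, and its other probe gave -1.04. It passed 2-fold under quantile normalization (-1.03), cyclic loess (-1.02) and the deposited table (-1.03). Matrix glycoproteins had 1 higher of 55, Omd, which encodes osteomodulin, a keratan sulphate proteoglycan of bone, at -0.97 in Control and 0.30 in HSD1. Cthrc1, a secreted protein of remodelling fibroblasts, was 2.15-fold lower (-0.82 under normexp). Fibroblast markers as a list had a median of -0.08, with 6 of 16 above 0, Lum at -0.88, Fbln1 at -0.82 and Postn at -0.45.

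The list of 42 matrix proteases and inhibitors held 3 higher genes, the inhibitors A2m and Timp4 and the protease Mmp24, and 1 lower, the protease Mmp12. Mmp12, the macrophage elastase, had levels of 1.36 in Control, -0.01 in HSD1 and 0.46 with the inhibitor added, 2.60-fold lower in HSD1. Mmp24, a membrane-type metalloproteinase, had -2.04, -0.21 and -0.55, 3.55-fold higher. Timp4, a tissue inhibitor of metalloproteinases known from heart, was at 1.14 from a dim signal (0.20 under normexp). Crispld2, a secreted protein that binds lipopolysaccharide, had levels of 1.96, 3.65 and 3.22, 3.23-fold higher in HSD1, and kept 1.65 under normexp.

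Among the function lists outside those set aside, enzymes that handle foreign compounds had the most higher genes. Of 51 measured outside the set-aside lists, 6 were higher and 0 lower, 38 were above 0 and the median was 0.16, or 0.07 under quantile normalization and 0.02 under normexp for the list with its set-aside member. Fmo2, a flavin-containing monooxygenase, an enzyme type that oxidises nitrogen and sulphur in drugs, had levels of -2.71 in Control, -0.86 in HSD1 and -1.46 with the inhibitor added, 3.62-fold higher in HSD1, with the other probe at 2.16 and 0.94 under normexp. Fmo1, of the same enzyme type, had -4.18, -3.09 and -3.36, 2.12-fold higher and 0.33 under normexp.

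Also higher were Aldh3a1, which oxidises aldehydes (1.60, and 0.74 under normexp), the alcohol dehydrogenase Adh1c (1.35, and 0.35) and Nr1i2, the pregnane X receptor (1.26, and 0.36). Aldh3a1 stood higher still with the inhibitor, at -1.10 against -1.79 in HSD1 and -3.40 in Control. Glutathione genes and NRF2 targets, which answer oxidative stress, gave 0 higher and 1 lower of 76. The lower gene was Gsta2, a glutathione transferase, with levels of -2.40 in Control, -3.77 in HSD1 and -1.80 with the inhibitor added, so that it was above Control on the array with the inhibitor (-0.63 under normexp). Glrx, the redox enzyme glutaredoxin, had -1.11, 0.85 and 0.63, 3.90-fold higher in HSD1. Steroid and retinoid metabolism held 2 higher of 44, the 3-alpha-hydroxysteroid dehydrogenase Akr1c14 (1.54, and 0.36 under normexp) and the retinoic acid binding protein Crabp1 (1.43, and 0.39), and prostaglandin genes 2 of 28, the catabolic enzyme Hpgd (1.21, and 0.99 under normexp) and the prostaglandin D synthase Hpgds (1.16, and 0.21).

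In energy metabolism, single enzymes stood out from lists that lay at the median of all genes. Acsbg1, an acyl-CoA synthetase that activates long-chain fatty acids, had levels of -1.83 in Control, 0.85 in HSD1 and -0.16 with the inhibitor added, 6.42-fold higher in HSD1. The fatty acid oxidation list around it had 2 higher of 55 and a median of 0.06, the other gene being the propionate-activating enzyme Acss3 (1.14, and 0.11 under normexp). Prodh, the mitochondrial enzyme that starts proline breakdown, had -0.43, 1.33 and 1.16, 3.37-fold higher. Ckmt2, the mitochondrial creatine kinase of striated muscle, had -0.12, 1.48 and 1.18, 3.02-fold higher, and was the only higher gene of 56 in the list of the TCA cycle, creatine and mitochondrial regulators. These 3 kept at least 2-fold under normexp, at 2.03, 1.45 and 1.44.

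Of 70 respiratory chain and ATP synthase genes 0 were 2-fold apart, with a range of -0.19 to 0.36. Of 69 genes of glycolysis, glucose uptake and glycogen 1 was higher, Pdk1, a kinase that shuts pyruvate dehydrogenase (1.22, and 0.48 under normexp). Cholesterol synthesis and SREBP genes leaned the other way in small steps: 28 of 36 were below 0, with a median of -0.15 (-0.11 to -0.21 over the alternatives), Sqle, the squalene epoxidase, at -0.27, and 0 genes 2-fold apart. The extreme was Cyp7b1, an oxysterol hydroxylase, at -0.59.

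Transporters and channels were higher in few members. Slc28a2, which takes up purine nucleosides, had levels of 0.58 in Control, 2.06 in HSD1 and 1.95 with the inhibitor added, 2.79-fold higher in HSD1, and its other probe gave 1.13. Over all solute carriers 6 of 258 were higher, 0 were lower and the median was 0.11. Car8, a carbonic anhydrase relative without catalytic activity, was 2.29-fold lower, with levels of 1.26 in Control, 0.07 in HSD1 and 0.51 with the inhibitor added. Potassium channels had the highest median by these values of the function lists outside those set aside, 0.28, or 0.18 to 0.22 under the other scalings and 0.04 under normexp, with 35 of 49 above 0. The 2 higher ones were subunits that modulate the channels, Kcnip1 (1.40) and Kcnab2 (1.06), both dim and at 0.44 and 0.15 under normexp. The sodium channel subunit Scn4b was 2.87-fold lower from a dim signal (-0.52 under normexp).

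Signalling genes with large differences came from separate pathways. Rprml, a relative of the cell cycle inhibitor reprimo, had levels of -1.78 in Control, 0.11 in HSD1 and -0.30 with the inhibitor added, 3.70-fold higher in HSD1, with the other probe at 1.21. Rapgef5, an exchange factor of the Rap GTPases, had -1.89, -0.01 and -0.33, 3.68-fold higher, with the other probe at 0.70. Snw1, a coactivator in transcription and splicing, was 3.08-fold higher (0.93 under normexp). Porcn, the acyltransferase that Wnt proteins need for secretion, was 2.40-fold higher, from 0.68 to 1.94, and the only higher gene of 37 in the Wnt list. The adenylyl cyclase gene Adcy3 was higher at 1.80 from a dim signal, and normexp put it at 0.36. The remaining lists with a gene past 2-fold held dim ones that lost it under normexp: the fatty acid elongase Elovl3 (1.22, and 0.21), the sodium-calcium exchanger Slc8a2 (1.14, and 0.12), the acetylcholine receptor subunit Chrng (-1.06, and -0.23) and the calcium-binding protein S100g (-1.05, and -0.50).

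On the lower side, Lypd1, a membrane-anchored protein of the Ly6 family, had levels of 0.89, -0.31 and -0.17, 2.30-fold lower in HSD1. Ppp2r2b, a regulatory subunit of the phosphatase PP2A, was 2.28-fold lower (-0.83 under normexp). Tmem174, a membrane protein, had 2.13 in Control, 1.00 in HSD1 and 2.32 with the inhibitor added, 2.20-fold lower in HSD1 and near Control where the inhibitor was added. Hgf, the growth factor of hepatocytes and endothelium, was 2.66-fold lower from a dim signal (-0.47 under normexp). Cdkn2b, the cyclin-dependent kinase inhibitor p15, had 0.62, -0.57 and -0.50, 2.29-fold lower, and its other probe gave -1.29. It was the only gene of 78 in the cell cycle and replication list to differ 2-fold. The other cell cycle genes lay a little below 0, with 52 of the 78 negative and a median of -0.11.

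**Figure D4:**
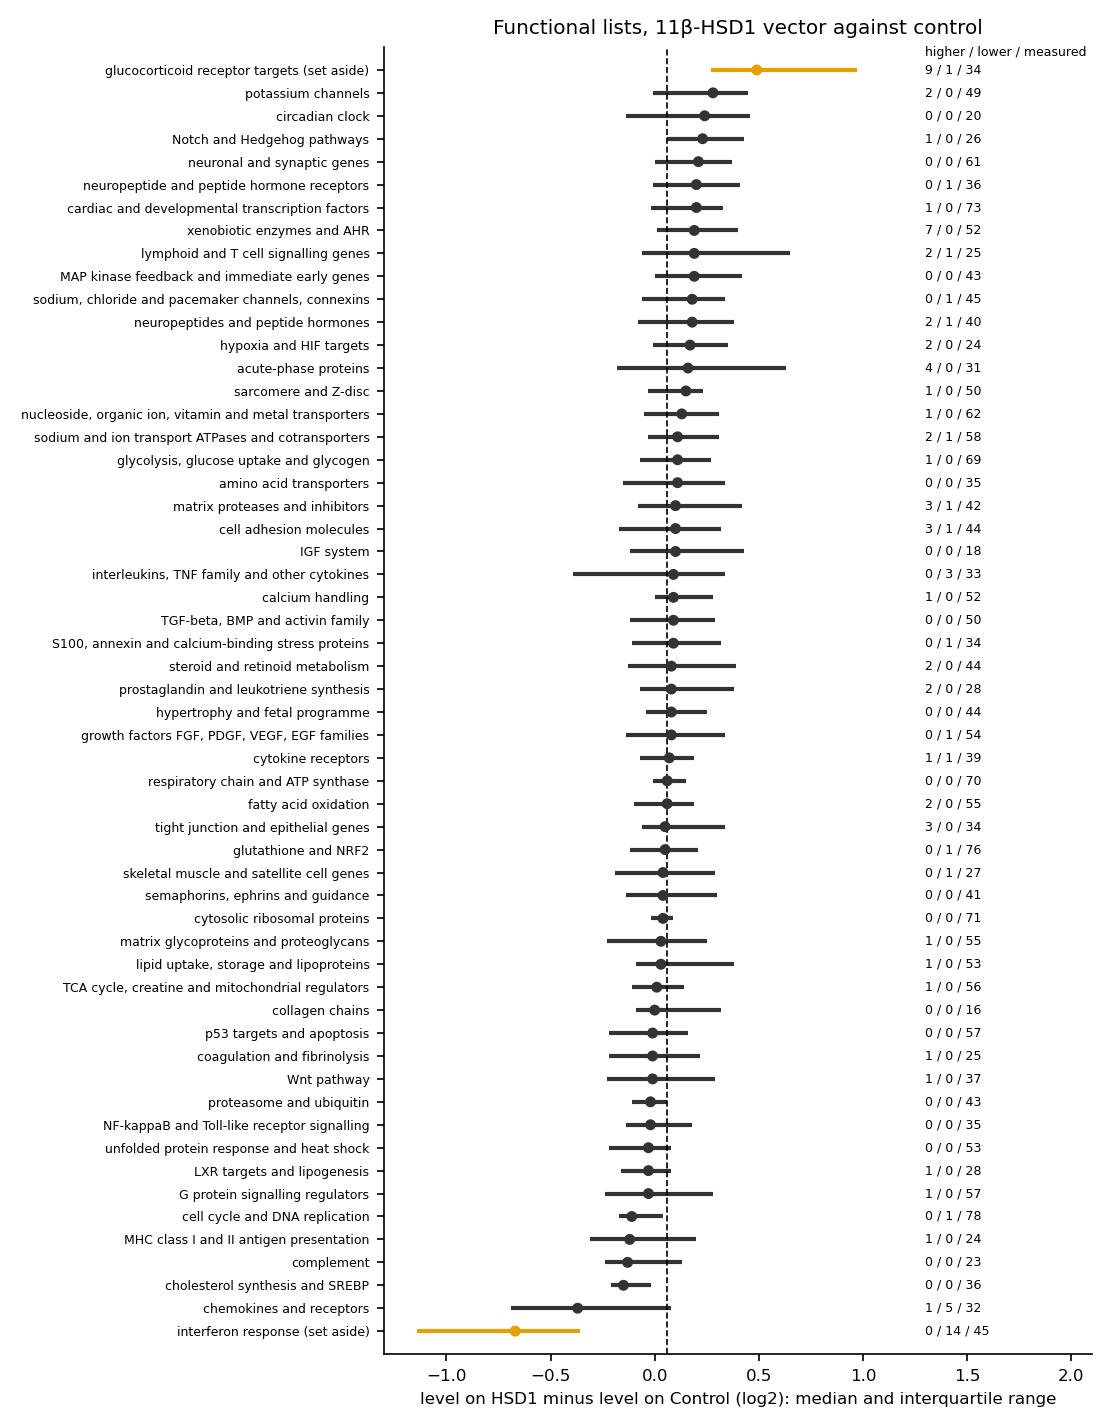
Median difference between HSD1 and Control (log2, points) and interquartile range (bars) for each of 56 function lists, with the numbers of higher, lower and measured genes at the right and a dashed line at the median of all genes, 0.06. The set-aside glucocorticoid and interferon lists, in orange, form the ends, and most other lists lie close to the dashed line.

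Genes of contraction and hypertrophy stayed close to Control. Of 50 sarcomere and Z-disc genes 1 was higher, Lmod1, an actin nucleator best known from smooth muscle (1.13, with the other probe at 1.03, and 0.40 under normexp), and the median was 0.15. The intermediate filament gene Des stood at 0.50, and the ventricular light chain gene Myl2 at -0.45, the lowest of the list. Of 44 genes of hypertrophy and the fetal programme 0 were higher and 0 lower, with a range of -0.45 to 0.67 that ended at Adra1a, the alpha 1A adrenergic receptor. Immediate early and MAP kinase feedback genes gave 0 of 43, with Fos at 0.73, Dusp2 at 0.89 and Phlda1 at -0.60. The 71 cytosolic ribosomal protein genes, among the brightest on the array, lay within -0.16 to 0.24, and the 53 genes of the unfolded protein response and heat shock within -0.80, for the asparagine synthetase gene Asns, to 0.47.

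Of the 225 genes past 2-fold, 93 belonged to a function list and 132 to none. The following were chosen from the latter after their values were seen. Dpp4, the membrane peptidase that trims incretins, was 4.27-fold higher (0.88 under normexp), and Corin, the protease that activates the natriuretic peptide of the atrium, was 3.68-fold higher (0.65). Steap4, a metalloreductase, had levels of 2.03 in Control, 3.39 in HSD1 and 3.46 with the inhibitor added, 2.56-fold higher in HSD1, with the other probe at 1.05. Selenop, the plasma carrier of selenium, had 0.49, 1.74 and 1.77, 2.37-fold higher. Mrap, the accessory protein of the corticotropin receptor, was 2.86-fold higher, and the imprinted RNA H19 2.31-fold (0.96 under normexp). Among the lower genes, the phosphatase gene Ppm1e was 5.16-fold and the lens crystallin gene Crygb 5.46-fold lower, both dim and at -0.86 and -0.70 under normexp, and the chemokine Ccl12, which the list lacked, 4.37-fold lower (-0.72).

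Genes measured on 1 array only give a bound, set against the dimmest signal that still counted as well above background on the other array. That floor was a level of -6.77 on the Control array, used for higher genes, and -6.39 on the HSD1 array, used for lower genes. At equal brightness a higher gene therefore gets a larger bound than a lower gene. The counts below cannot tell if more genes were higher than lower. Of 365 genes measured only in HSD1, 362 had a bound above 1 and 105 were at least 2-fold higher. Actrt1, an actin-related gene of the testis, was at least 11.6-fold higher, the olfactory receptor gene Or12k5 at least 5.74-fold, and Serpina6, which encodes the plasma globulin that binds corticosteroids, at least 4.86-fold higher. Of 305 genes measured only in Control, 226 had such a bound and 26 were at least 2-fold lower. The olfactory receptor gene Or7g23e was at least 9.99-fold lower, Ucn3, which encodes the peptide urocortin 3, at least 8.69-fold lower and the keratin Krt6c at least 6.83-fold lower. All 6 rest on dim signals.

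Receptors known mainly from sensory cells made up a large family of dim probes. Of 1295 olfactory, vomeronasal and taste receptor genes with a probe, 386 were measured, 7 were higher, 4 were lower, 310 were above 0 and the median was 0.26. Over all genes in the lowest quartile of signal the median was 0.19. Of the 25 above the median signal, 0 were 2-fold apart.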

How the data were processed

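Per the file headers, each array was read in 1 channel, and spots were quantified by Agilent Feature Extraction 11.0.1.1. The deposited intensity values are the background-subtracted processed signal, the median spot signal and the local background, on a linear scale. A second deposited table holds log2 values for 30423 probes, and its sorted columns agree within 0.01 at 26991 ranks, as quantile normalization gives. Its median is 6.69 in each column, and the sources used here do not name its software. It was compared with the log2 processed signal of each array (r = 0.9991 for Control and for HSD1), which puts it on the log2 scale, with no centring per gene.

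Each level is log2(processed signal) relative to the 75th percentile on that array (1318.8 in Control, 1164.5 in HSD1, 1542.7 in HSD1 plus BVT). Control spots and outlier spots (311, 409 and 363) were left out, and spots of a probe were averaged. Of 30366 probes, 18005 matched 1 gene by RefSeq accession (GRCr8) and 12361 did not. Of the genes, 12564 had 1 probe, and for the others the brightest was used. A gene was measured where both arrays flagged it well above background. Promoter sequences are from RefSeq (GRCr8).

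The members, 56 function lists and 9 cell type lists were chosen with earlier results of these data known. The families taken by gene symbol (claudins, chemokine ligands, solute carriers and sensory receptors) were chosen after the values were seen. Named genes were the 20 largest per direction (14 qualified as lower, 56 as higher) that were 2-fold in the main values, after quantile normalization and in the deposited table, above the median signal, outside the set-aside lists and with no opposing probe. Added to these were up to 3 members per list and direction that were 2-fold in the main values alone, or the list's extreme member, and 3 bounds per direction. Alternatives were run with limma 3.58.1 in R 4.3.3 and pandas 2.3.3. Normexp used the median spot signal with an offset of 50. The calculation was tested on simulated data. The number of arrays limits the precision, and the spread between cultures is unknown. A few genes the naming rule picks are not reported here.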

Additional observations from a re-analysis of the deposited data

Results flagged for a closer look

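Probes that matched no RefSeq gene lay outside the comparison and also showed differences: of 8797 measured on both arrays, 85 were higher and 37 lower by 2-fold or more, 1.39% of them. They were looked at because a signal appeared in data the comparison did not use. Above the median signal, 17 were higher and 7 lower. The probe A_64_P020050, which no table here names, went from -6.55 in Control to -1.27 in HSD1, 38.9-fold higher, and A_64_P097888 was 3.76-fold higher. A_64_P396622 and A_64_P022619 were 4.12-fold and 2.86-fold lower. These 4 are given by size alone.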

How the results depend on the processing

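No sign turned among the named genes past 2-fold. Counts of higher and lower genes stayed within 1.5 times of 161 and 64 under quantile normalization, cyclic loess, the deposited table, median centring (139 and 77), the mean of a gene's probes (155 and 65) and with outlier spots kept (160 and 65). Under normexp they fell to 41 and 13, and above the median signal alone they were 66 and 25 of 5941 genes. With no filter on dim probes they were 923 and 174 of 15159, and at a 1.5-fold threshold 678 and 272. Of the 56 function lists, 15 had a median that changed sign under quantile normalization, cyclic loess, normexp, the deposited table or median centring, and all 15 lay within 0.11 of 0. Negative control spots read a median of 56.0 in Control and 61.5 in HSD1 against a local background of 19 and 20, so dim signals limit what can be read. No paired analysis was possible because each group has 1 array. No replicate could be left out, and the dim filter does not alter the value of a single named gene.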
